A study of Homo sapiens with 6 samples.

Results

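The genes described here are 34 targets of the transcription factor p53 that act in DNA repair, redox balance, growth arrest, cell death and related roles, out of 53719 rows of the gene count table. They were chosen by name as p53 targets that are not death receptors, BCL2 family genes, CDK inhibitors or MDM2, and they were chosen with the knockdown against control contrast of these libraries already known. That contrast is therefore given for them as a description, without a test of their own. The libraries came from H9, a long-established line of human embryonic stem cells, kept in RSeT medium for a naive state. A control gapmer or one directed at ALR, the alpha satellite RNA made from centromeric repeats, was transfected, and RNA was taken after 48 h. A gapmer is an antisense oligonucleotide whose DNA core lets RNase H cut the RNA it pairs with. Each of the 2 groups had 3 libraries, named a, b and c, and the knockdown libraries carry the name Sense3 in the labels. All rest on a single cell line and, as far as the labels say, on 1 knockdown gapmer, and nothing says that the libraries came from separate cultures, so their spread may be technical. No row named for ALR was found, so the knockdown itself was not checked here.

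p53 is held low in unstressed cells by MDM2, which marks it for degradation. DNA damage, nucleolar stress and other insults release it, and it then binds a paired motif near its targets and raises their transcription. Pluripotent stem cells are known to hold much p53 protein and to be quick to die when it is activated. The genes here are the arm of the response that repairs DNA, buffers oxidative stress, slows the cell cycle and tunes the threshold of death.

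Values of single libraries are given in the order a, b, c. Libraries held 25087629 to 36576752 counts. Knockdown library a stood apart, with counts in 29678 rows against 25898 to 26788 in the other 5. Of 13 pluripotency markers, 12 had counts in every library. Their summed level was 7037 to 7790 CPM (read counts over the TMM-scaled library size) in knockdown and 6999 to 7136 in the controls. The exception was SOX2, which was listed at 0 throughout although these cells depend on it. A 0 in this table therefore need not mean that a gene was silent. Levels of the 12 ran from DPPA2 (9.25 to 11.8 CPM) to DNMT3B (1898 to 2170). The knockdown lay wholly above the controls in 3 of the 12, where 9.55% of all tested genes did, and wholly below in 2, where 9.37% did. POU5F1, 1 of those above, had 120, 152 and 127 CPM in the knockdown and 114, 87.8 and 97.4 in the controls. The 11 markers of naive pluripotency summed to 82.7 to 92.1 CPM in the knockdown and 81.9 to 85.9 in the controls. Among them KLF17 was near 0 (0.0275 to 0.352 CPM). ARGFX, DPPA5, TBX3, DNMT3L and SUSD2 were also low, between 0.317 and 3.03 CPM, and KLF5 and FGF4 lay between 4.87 and 9.29. The sum came mostly from TFCP2L1 (23.9 to 32.2 CPM), DPPA3 (18.1 to 21.9) and KLF4 (16.5 to 19.1). The 7 primed markers with a row summed to 354 to 395 and 340 to 370 CPM, with SFRP2 at 71.9 to 84.4 CPM and THY1 listed at 0. Markers of fibroblast feeders summed to 89.1 to 98.4 CPM in the knockdown and 92.5 to 106 in the controls, mostly from COL1A2 (60.7 to 81.0 CPM) and COL1A1 (18.8 to 24.8 CPM), with COL3A1, DCN and LUM at 0.388 CPM or less. Those of trophectoderm and amnion summed to 55.8 to 58.2 and 57.0 to 64.5 CPM, nearly all from TFAP2C. Those of the germ layers summed to 17.7 to 19.3 and 15.0 to 17.0 CPM. Whether these levels bear on the results below was not tested.

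Of the 34 genes, 30 had enough counts to be tested, with a mean of 90.7 to 10338 counts per library. The other 4, TP53INP1, TP53I3, TRIAP1 and TRIM22, were listed at 0 in all 6 libraries and are not described further as measurements. Among the 30, 23 were lower and 7 higher in the knockdown, with a median log2 fold change of -0.16. In bulk RNA such as this, fewer cells that express a gene and less of its RNA per cell cannot be told apart. Across all 19721 genes tested, 45.6% were lower and the median was 0.02. All differences were under 2-fold: the widest were -0.60 (EPS8L2) and 0.18 (PLXNB2). The knockdown libraries lay wholly below the controls in 14 of the 30 genes, where 9.37% of all genes did, and wholly above in 1, where 9.55% did. Only PLK2 and ZMAT3, both lower, were past an adjusted p of 0.05 in the fit of the whole table (edgeR quasi-likelihood test, Benjamini-Hochberg). Of all genes, 0.786% were past it. An unadjusted p under 0.05 in this fit was reached by 15 of the 30 genes and by 14.3% of all genes. Since the genes were chosen with this contrast known, nothing is read from these counts beyond the values themselves.

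**Figure D1:**
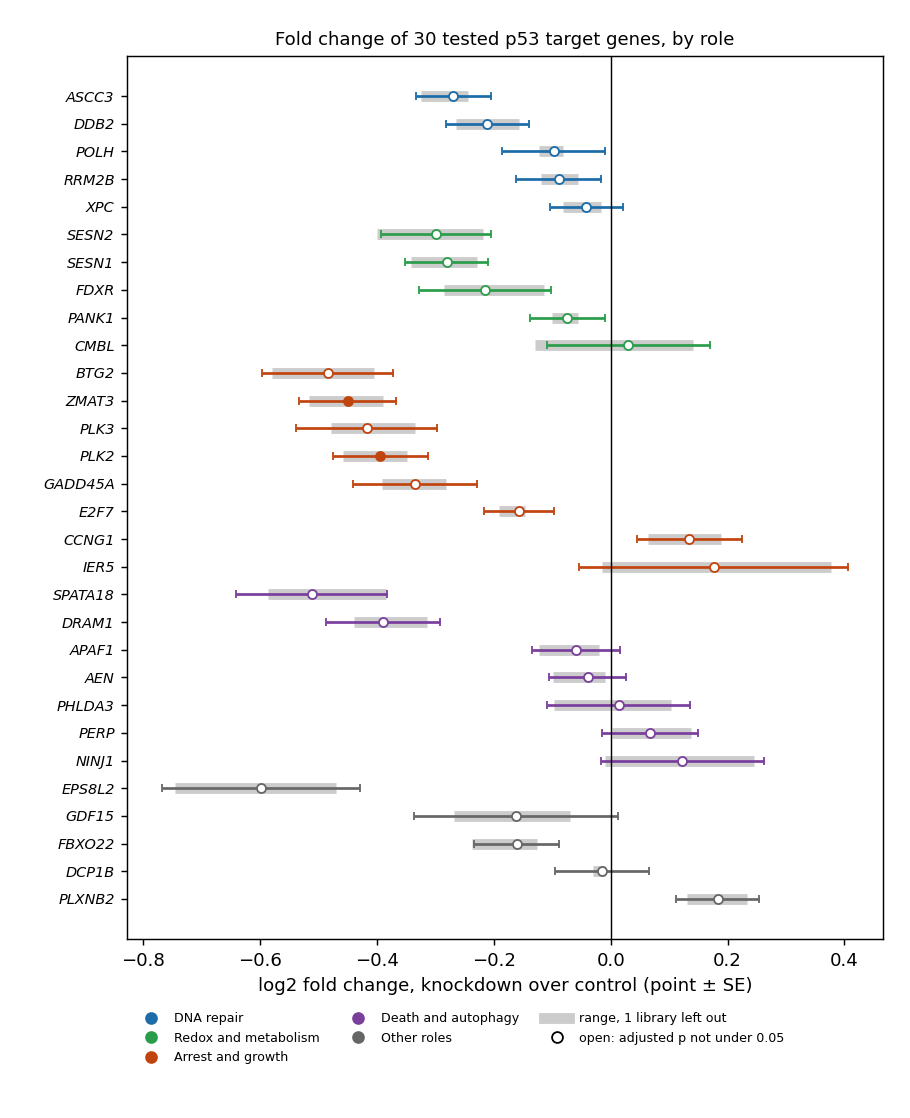
Log2 fold change (knockdown over control, x axis) of the 30 tested genes, grouped by role; points with bars give the fitted value ± SE, grey bands the range over 6 fits that each left out 1 library, and filled points the 2 genes past an adjusted p of 0.05. Values run from -0.60 for EPS8L2 to 0.18 for PLXNB2, and the arrest genes BTG2, ZMAT3, PLK3 and PLK2 lie together between -0.48 and -0.39.

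The 8 arrest and growth genes had a median log2 fold change of -0.36, with 6 lower. The median was -0.22 over 5 tested redox and metabolism genes (4 lower), -0.10 over 5 repair genes (5 lower), -0.04 over 7 death and autophagy genes (4 lower) and -0.16 over 5 genes of other roles (4 lower). These medians moved when single libraries were left out. Without knockdown library a the redox median was -0.11, that of the other roles -0.07 and that of death and autophagy -0.01. Without control library a they were -0.13, -0.10 and -0.02. Without knockdown library b the death and autophagy median was -0.10. Over the fits without 1 library, the arrest median lay between -0.39 (without knockdown library b) and -0.31 (without control library a). The repair median lay between -0.12 and -0.08 over those fits and was -0.14 with thinned counts. Whether roles differ from each other was not tested.

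The sequence upstream of RefSeq transcription starts was examined because p53 acts through a motif that can be searched for. RefSeq promoter windows (GRCh38.p14, 250 bases before the transcription start) were at hand for 26 of the 34 genes, in 34 windows. The p53 half-site consensus, a 10-base palindrome that therefore reads alike on both strands, was matched exactly in 6 of these genes (23.1%), compared with 6.80% of all 27305 genes with a window. By window the shares were 17.6% of 34 and 5.57% of 35116. A pair of half-sites with at most 2 mismatches and a spacer of up to 13 bases was found in 5 genes (19.2%), against 3.07% of all genes. Over 74 genes of the other p53 target and regulator lists, the exact half-site was found in 9.46% and the pair in 8.11%. By window the half-site share there was 5.56% of 126. The 34 genes were named as p53 targets to begin with, so their shares are a description. Why they differ from those of the other lists was not tested. A match is a run of letters and is not shown here to be bound. The 6 stretches are given 5′ to 3′ on the gene's strand, with the half-site in capitals, so that genes with wider and narrower differences can be set side by side.
PLK2: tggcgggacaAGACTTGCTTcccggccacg
SESN1: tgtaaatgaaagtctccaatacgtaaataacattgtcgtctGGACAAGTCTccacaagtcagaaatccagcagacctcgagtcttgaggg
EPS8L2: cctgtgctccAGGCTTGTCCacagctccgg
FDXR: ggcgggcccgggcaggagcGGGCTTGCCCt
PANK1: gggcaggactGGGCATGCTCagtggcgggg
AEN: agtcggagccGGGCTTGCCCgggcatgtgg

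These lie at chr5:58460199-58460228 (PLK2, minus strand), chr6:109008989-109009078 (SESN1, minus strand, at an internal start of the gene), chr11:720505-720534 (EPS8L2, plus strand, also an internal start), chr17:74872995-74873024 (FDXR, minus strand), chr10:89645246-89645275 (PANK1, minus strand) and chr15:88621296-88621325 (AEN, plus strand). The half-site began 132 bases before the RefSeq start in PLK2, 125 in EPS8L2, 49 in SESN1, 34 in AEN, 23 in PANK1 and 11 in FDXR. All these stretches lie within the span of the gene in the GENCODE annotation. Those of PLK2, PANK1, AEN and FDXR overlap annotated exons, and those of SESN1 and EPS8L2 do not. The stretches are thus upstream of the RefSeq start used here, but not of the whole annotated gene. AEN and FDXR carried the same 10 letters. In AEN and PANK1 a second half-site with 2 mismatches adjoined the first with no spacer. Log2 fold changes of these 6 genes ran from -0.60 (EPS8L2), -0.39 (PLK2), -0.28 (SESN1) and -0.22 (FDXR) to -0.07 (PANK1) and -0.04 (AEN). ZMAT3 and BTG2, among the lowest genes, held no exact half-site in their windows. The windows were rich in G and C (median 67.2%, against 58.0% over all windows), and TATAAA, read on both strands, occurred in 1 of 34 (2.94%, the GDF15 window) against 10.7% of all windows.

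Among the repair genes, the values of ASCC3 and DDB2 were separated most clearly. ASCC3 encodes the helicase of a complex that serves alkylation repair and clears stalled ribosomes. It had 295, 303 and 321 CPM in the knockdown and 370, 362 and 376 in the controls (log2 fold change -0.27 ± 0.06, SE). All 3 knockdown values were below all 3 controls. The complex partners ASCC1 and ASCC2 were at 0.00 ± 0.06 and -0.01 ± 0.06. DDB2, which recognises ultraviolet lesions in chromatin for nucleotide excision repair, had 41.6, 46.7 and 47.3 CPM in the knockdown and 52.7, 53.4 and 50.9 in the controls (log2 fold change -0.21 ± 0.07). Its groups did not overlap either, and knockdown library a was the lowest. DDB1, the subunit DDB2 binds, was at 0.10 ± 0.07.

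POLH, the translesion polymerase that copies past thymine dimers, had 14.2, 14.1 and 13.1 CPM in the knockdown and 14.5, 14.8 and 14.9 in the controls. These groups did not overlap, but the difference was small (log2 fold change -0.10 ± 0.09). RRM2B, the p53-induced small subunit of ribonucleotide reductase, had 41.0 to 45.6 CPM in the knockdown and 44.6 to 49.4 in the controls (-0.09 ± 0.07), with overlap. XPC, the damage sensor of global nucleotide excision repair, had 54.8 to 58.6 and 58.1 to 59.2 CPM (-0.04 ± 0.06), also with overlap. Exons of XPC overlap those of LSM3 and other genes on the opposite strand, and the strand setting of the counting is not known, so reads could be shared. In the GENCODE annotation, exons of 12 of the 34 genes overlap another gene. They include SESN1 (363 bases, opposite strand) and, on the same strand, PANK1 (621 bases) and PHLDA3 (598 bases). Of 24 partner genes of excision repair, translesion synthesis, ribonucleotide reduction and the ASCC complex, 11 were lower and 13 higher. Their median was 0.01, and 0 passed the adjusted threshold (edgeR). An unadjusted p under 0.05 was reached by 5 of them, and by 14.3% of all genes.

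The sestrins led the redox and metabolism genes. Sestrins limit oxidative stress and restrain the growth kinase complex mTORC1. SESN1 had 45.2, 47.5 and 50.4 CPM in the knockdown and 61.5, 56.0 and 56.5 in the controls (log2 fold change -0.28 ± 0.07). SESN2, its paralog, had 19.99, 22.7 and 25.2 against 29.4, 28.3 and 25.9 CPM (-0.30 ± 0.09). In both paralogs the knockdown values were all below the controls, with knockdown library a lowest and control library a highest. In SESN2 the gap between the groups was narrow, since knockdown library c came close to control library c. SESN3, the third sestrin, was listed at 0.

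FDXR, ferredoxin reductase, passes electrons to mitochondrial cytochromes P450 and iron-sulfur cluster assembly. It had 12.7, 16.1 and 15.99 CPM in the knockdown and 19.1, 17.2 and 15.7 in the controls (-0.22 ± 0.11), and the groups overlapped because control library c was low. PANK1, a pantothenate kinase of coenzyme A synthesis, had 54.6 to 56.4 CPM in the knockdown and 55.8 to 60.6 in the controls (-0.07 ± 0.06). CMBL, a hydrolase, had 7.60 to 11.3 and 8.86 to 9.76 CPM, and its log2 fold change of 0.03 ± 0.14 took either sign when single libraries were left out (-0.13 to 0.14). Of 22 related genes, which included PANK2, PANK3 and antioxidant enzymes such as NQO1 and SOD1, 16 were tested and 10 were lower. Their median was -0.004, and 0 passed either the adjusted threshold or an unadjusted p of 0.05 (edgeR). Of all genes, 14.3% passed the unadjusted one.

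Arrest and growth genes held both genes past the adjusted threshold. ZMAT3, an RNA-binding zinc finger protein that controls splicing and RNA decay downstream of p53, had 28.7, 26.5 and 26.5 CPM in the knockdown and 37.3, 40.6 and 33.7 in the controls (log2 fold change -0.45 ± 0.08, a level of 0.732 times the control). PLK2, a polo-like kinase linked to centriole duplication and stress checkpoints, had 22.7, 23.9 and 20.1 against 29.8, 28.9 and 29.04 CPM (-0.39 ± 0.08, 0.761 times the control). Both genes had clear gaps between the groups, and the 3 control values of PLK2 were close together. The calls were not firm: ZMAT3 passed in 12 of 16 alternative analyses and PLK2 in 7. ZMAT3 was lost without knockdown library b or any 1 of the controls, and PLK2 without any 1 library other than knockdown library c, while the log2 fold changes stayed between -0.52 and -0.39 for ZMAT3 and between -0.46 and -0.35 for PLK2.

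PLK3, the paralog of PLK2, had 6.35, 6.95 and 7.24 CPM in the knockdown and 10.1, 8.44 and 8.92 in the controls (-0.42 ± 0.12). Its mean count was 245 per library, against 791 for PLK2, and its standard error 0.12 against 0.08. The polo-like kinases of mitosis and centriole duplication, PLK1 and PLK4, were at 0.05 ± 0.08 and -0.05 ± 0.06. BTG2, an antiproliferative factor that recruits deadenylases to mRNA, had 10.6, 11.2 and 9.93 against 15.1, 16.6 and 12.9 CPM (-0.48 ± 0.11). Every knockdown value lay below every control, with control library c the lowest control. Its relatives BTG1 and BTG3 were at -0.12 ± 0.08 and -0.24 ± 0.07.

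**Figure D2:**
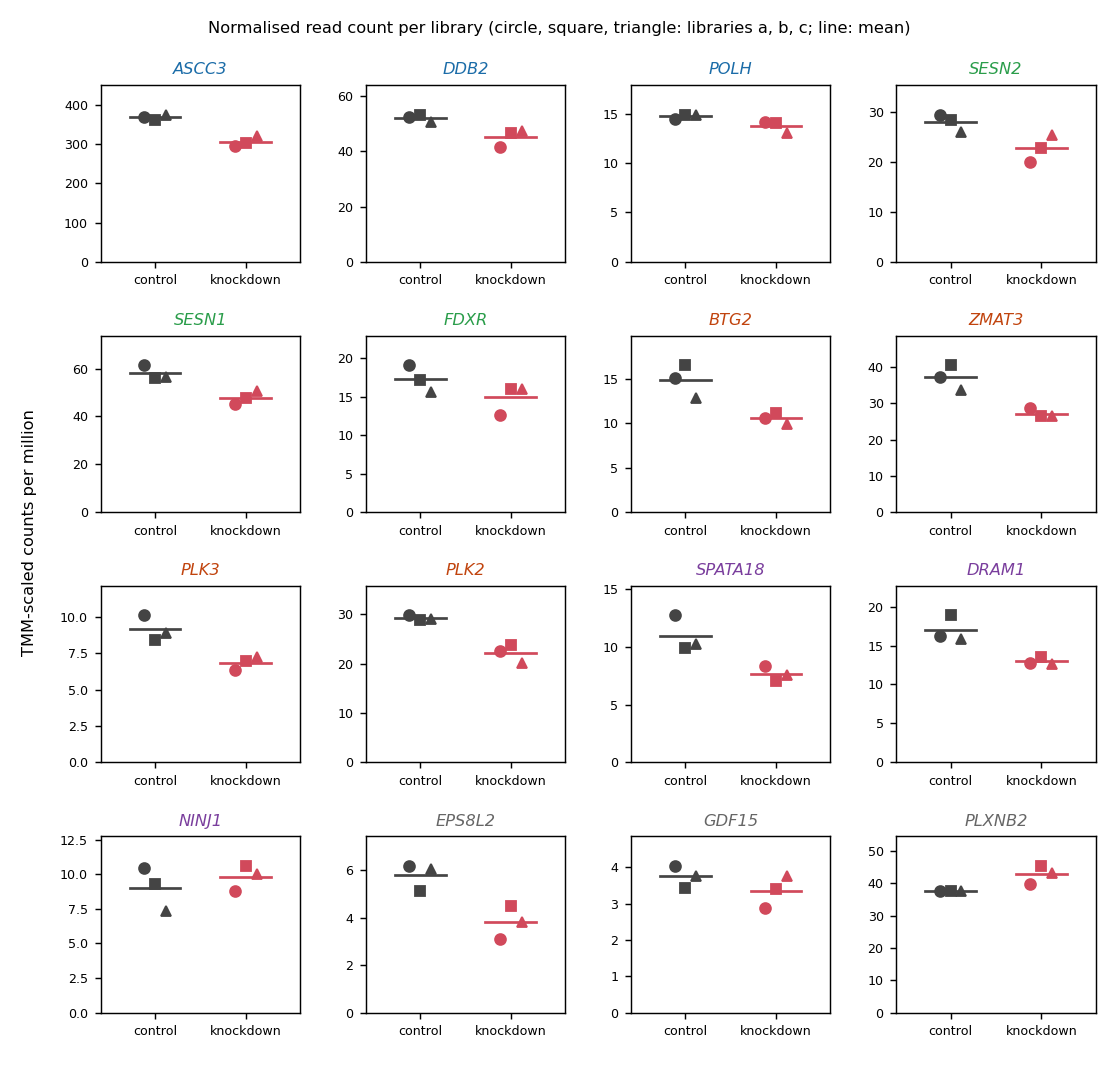
TMM-scaled CPM (y axis from 0) in each control (grey) and knockdown (red) library for the 16 genes given in full; circles, squares and triangles are libraries a, b and c and lines are group means. The groups are apart in ZMAT3 (26.5 to 28.7 against 33.7 to 40.6) and PLK2 (20.1 to 23.9 against 28.9 to 29.8) and overlap in FDXR, NINJ1 and GDF15.

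GADD45A, a stress sensor of arrest and repair, had 8.14 to 9.14 CPM in the knockdown and 10.6 to 11.6 in the controls (-0.33 ± 0.11) without overlap. E2F7, a repressor of E2F target genes, had 68.3 to 70.9 and 76.7 to 78.7 CPM (-0.16 ± 0.06), a small difference with tight replicates and no overlap. Opposite in sign were CCNG1, cyclin G1, which works with MDM2 in feedback on p53 (0.13 ± 0.09), and IER5, an immediate early gene (0.18 ± 0.23). Both overlapped between groups, and IER5, with the fewest counts of the 30, lay between -0.01 and 0.38 when single libraries were left out. Of 18 tested relatives of the arrest genes, 10 were lower and the median was -0.02. E2F3, an activator of cell cycle genes, was the only one to pass (edgeR adjusted p = 0.00583), with 157, 157 and 188 CPM in the knockdown and 251, 241 and 247 in the controls (-0.56 ± 0.08). Of all genes, 0.786% passed.

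Among death and autophagy genes, 2 were set apart from the rest. SPATA18 (Mieap), which takes part in mitochondrial quality control, had 8.39, 7.04 and 7.60 CPM in the knockdown and 12.7, 9.89 and 10.2 in the controls (log2 fold change -0.51 ± 0.13). DRAM1, a lysosomal membrane protein that promotes autophagy, had 12.7, 13.6 and 12.6 against 16.3, 18.9 and 15.9 CPM (-0.39 ± 0.10). In neither gene did the groups overlap. DRAM2, a relative of DRAM1, was at -0.14 ± 0.07. The other 5 showed no such separation.

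NINJ1, which ruptures the plasma membrane in dying cells, had 8.78, 10.6 and 10.01 CPM in the knockdown and 10.4, 9.31 and 7.35 in the controls (0.12 ± 0.14). Control library c was low and the groups overlapped. APAF1, the scaffold of the apoptosome, was at -0.06 ± 0.07, AEN, an apoptosis-linked nuclease, at -0.04 ± 0.07, PHLDA3, an inhibitor of AKT, at 0.01 ± 0.12, and PERP, a desmosome component, at 0.07 ± 0.08. AEN and PERP were among the most abundant genes of the set, with 136 to 152 and 85.0 to 106 CPM over all 6 libraries. Exons of APAF1 overlap ANKS1B on the opposite strand. Of 12 tested relatives, such as CASP9 and PHLDA2, 6 were lower, the median was -0.002, and 0 passed the adjusted threshold (edgeR). An unadjusted p under 0.05 was reached by 2 of them, and by 14.3% of all genes.

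The genes of other roles went both ways. EPS8L2, a regulator of actin remodelling, had 3.10, 4.49 and 3.84 CPM in the knockdown and 6.19, 5.12 and 6.06 in the controls, the largest difference of the set (log2 fold change -0.60 ± 0.17, 0.660 times the control). Its counts were few (mean 148 per library) and its exons overlap DEAF1 on the opposite strand. PLXNB2, a semaphorin receptor, was the only gene whose knockdown values were all above the controls, with 39.6, 45.4 and 43.2 against 37.7, 37.6 and 37.7 CPM (0.18 ± 0.07). PLXNB1, its relative, was at 0.04 ± 0.08.

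GDF15, a secreted stress cytokine and a common readout of p53 and of the integrated stress response, was low, with 2.89, 3.42 and 3.76 CPM in the knockdown and 4.05, 3.45 and 3.77 in the controls (-0.16 ± 0.17). Its groups overlapped. FBXO22, the substrate receptor of an ubiquitin ligase, had 62.9 to 71.4 and 69.4 to 77.4 CPM (-0.16 ± 0.07) with overlap, and its exons overlap NRG4. DCP1B, a cofactor of mRNA decapping, was even across libraries, at 16.3 to 16.9 CPM in the knockdown and 16.8 to 17.0 in the controls (-0.01 ± 0.08). EPS8, the founding relative of EPS8L2, was at -0.45 ± 0.10 without passing the adjusted threshold, and EPS8L1 at 0.12 ± 0.19. Of 14 tested relatives of these genes, 4 were lower and 10 higher, with a median of 0.05.

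Compared per length, the set spanned a wide range of levels. Control means per kilobase of annotated exon (GENCODE 29; the annotation used in counting is not given in the sources used here) were highest for ASCC3 (31.5 CPM per kb), AEN (24.3) and PERP (21.8). They were lowest for IER5 (0.671), EPS8L2 (1.02) and GDF15 (1.80). ZMAT3 and PLK2 were in between, at 3.86 and 6.13 CPM per kb.

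Library by library, the values restate the contrast known when the genes were chosen, and the genes did not all lean alike. Knockdown library b was the highest of 6 in 7 genes and the lowest in 3 (of all 19721 genes, in 4777 and 3943). The median deviation of the 30 genes from their own means (log2 CPM) was -0.12, -0.03 and -0.06 in the knockdown and 0.13, 0.09 and 0.06 in the controls. For all tested genes these medians were between -0.002 and 0.014. Knockdown library a, the library that stood apart in rows with counts, was the lowest of its group in 17 of the 30 genes (56.7%, against 34.4% of all genes). Control library a was the highest control in 15 (of all genes, in 35.1%). Without knockdown library a, 23 of the 30 genes were lower (50.3% of all genes), the median log2 fold change was -0.12, 14 genes lay wholly below the controls (14.04% of all genes) and 1, ZMAT3, passed the adjusted threshold (edgeR; 0.507% of all genes). Without knockdown library c the median was -0.21.

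**Figure D3:**
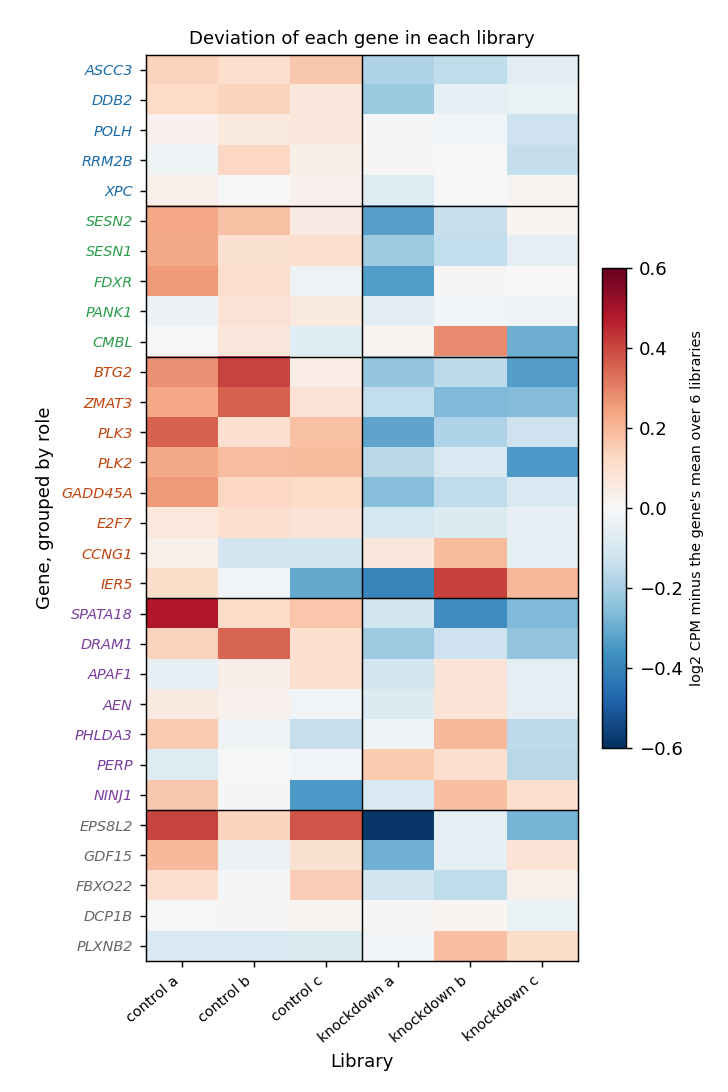
Deviation of each of the 30 genes (rows, grouped by role) in each library (columns), as log2 CPM minus the gene's mean over 6 libraries; red is above and blue below the mean. Median deviations are 0.13, 0.09 and 0.06 in the controls and -0.12, -0.03 and -0.06 in the knockdown libraries, and the PLXNB2 row runs the other way.

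The remaining pathway was described from lists that were also written with earlier results known. Of 15 core targets, such as MDM2, CDKN1A and the death receptors, 13 were lower, with a median of -0.33. An unadjusted p under 0.05 (edgeR) was reached by 9 lower and 1 higher core target, and by 14.3% of all genes. The adjusted threshold was passed by 4 core targets, all lower, and by 0.786% of all genes. These 4 were the p53 inhibitor MDM2 (-0.47 ± 0.07), the CDK inhibitor CDKN1A (-0.66 ± 0.12) and the death receptors EDA2R (-0.70 ± 0.10) and TNFRSF10B (-0.41 ± 0.07). Of 55 tested further targets, 38 were lower with a median of -0.06, and 2 passed, both lower: PRDM1, a transcriptional repressor (-0.79 ± 0.16; edgeR adjusted p = 0.0409), and PLCL2, a phospholipase C-like protein (-0.57 ± 0.11; edgeR adjusted p = 0.0381). PRDM1 had 6.80, 6.08 and 4.51 CPM in the knockdown and 11.2, 8.76 and 10.2 in the controls. Among the further targets, 13 lower and 2 higher genes reached an unadjusted p under 0.05 (edgeR). Of 16 members of the p53 family and its regulators, 9 were lower with a median of -0.002, and 0 passed (edgeR). An unadjusted p under 0.05 was reached by 4 of them, and by 14.3% of all genes. Across the 84 tested relatives of the 34 genes, 41 were lower and 43 higher, with a median of 0.01. Whether the 34 genes differ from these lists was not tested.

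**Figure D4:**
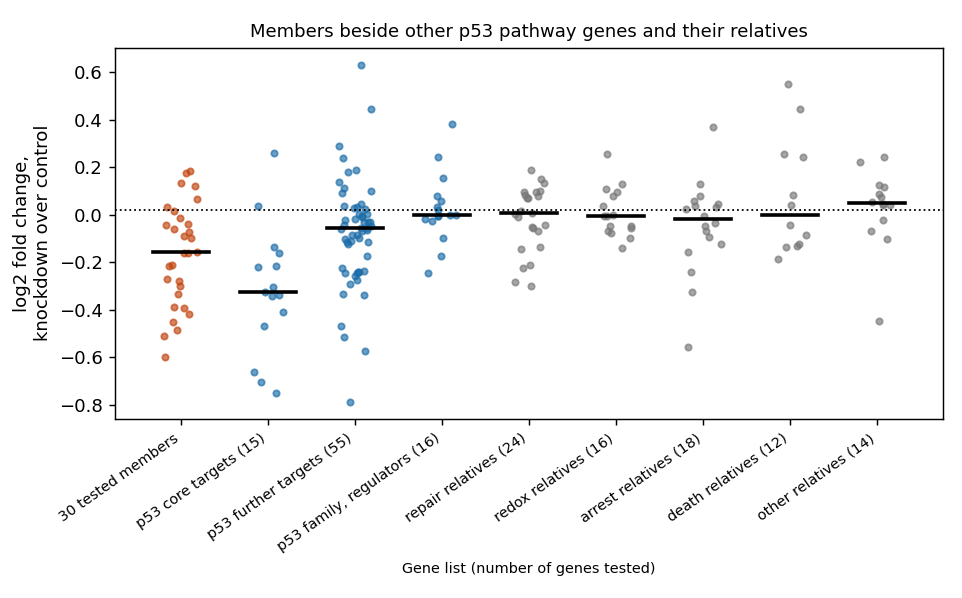
Log2 fold change (knockdown over control, y axis) of single genes in the set described here, in 3 other p53 lists and in 5 lists of relatives; bars are list medians and the dotted line is the median of all tested genes (0.02). Medians are -0.16 for the 30 genes, -0.33 for the core targets, -0.06 for the further targets and between -0.02 and 0.05 for the relatives.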

How the data were processed

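RNA of 3 knockdown and 3 control libraries was compared. The authors deposited raw counts per gene symbol, 1 column per library; the submitters' processing notes name Trimmomatic 0.39, STAR 2.7.8a, featureCounts, Subread 2.14.2 and hg38. Annotation, strand setting and treatment of multiply aligned reads are not given in the sources used here. Here, genes were filtered by filterByExpr, scaled by TMM and fitted across all 19721 genes with edgeR 4.0.16 (R 4.3.3; glmQLFit, group as the only term, two-sided, Benjamini-Hochberg, threshold 0.05). SE is the absolute log2 fold change over the root of the F statistic. CPM uses TMM-scaled library sizes. The procedure was tested on simulated data. A first criterion of recovery was missed there and was replaced by one that allows for genes of low count. Both criteria were set for a log2 change of 1, larger than that of any gene described here. Recovery at smaller changes is therefore not vouched for. The share of false calls, from 1 draw, was above the nominal one, so calls near the threshold (PLK2) are less certain. The genes and lists were chosen with earlier results of these data known. Genes given library by library were, per role, the 3 with the largest change at a mean count of at least 50, plus both sestrins and both of PLK2 and PLK3. From the other lists, genes past the threshold and direct relatives were named. Of the listed genes, 5 were matched by an older symbol. Alternatives used DESeq2 1.42.0, limma 3.58.1, other scalings and filters, thinned counts, a replicate block and fits without 1 library. Promoter sequences are from RefSeq (GRCh38.p14).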

Additional observations from a re-analysis of the deposited data

How the results depend on the processing

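Over 16 alternative analyses, the number of the 30 genes past the adjusted threshold was 2 with DESeq2 size factors, the robust edgeR fit and the mean count filter. It was 1 (ZMAT3) with library size alone, upper-quartile scaling, limma-voom and thinned counts (0.656 to 1.09% of all genes over these settings), 7 with DESeq2's Wald test (2.72% of all genes) and 9 with no low-count filter (3.29%). All calls in all alternatives were lower. Over the fits without 1 library it ran from 0 to 5: it was 0 without knockdown library b or any 1 control library (edgeR; 13 to 14 genes at an unadjusted p under 0.05, where 8.51 to 12.2% of all genes were, and 0.127 to 0.301% of all genes called) and 5 without knockdown library c (6.40% of all genes called). The median log2 fold change of the 30 genes stayed below 0, at -0.21 to -0.12 over those fits. The cause of these shifts was not tested. Signs held in every alternative for 25 of 30 genes, the exceptions being CMBL, IER5, PHLDA3, NINJ1 and DCP1B. The labels do not say whether the letters a, b and c pair libraries across groups. Correlations of deviations were 0.00175, 0.111 and -0.0249 for a, b and c, and only b correlated best with its own letter. With the replicate block, 4 genes passed (BTG2, PLK2, ZMAT3, SPATA18), where 1.99% of all genes did. Without it 2 passed, where 0.786% of all genes did. Whether the letters mark pairs remains unknown.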
